A study of Saccharomyces cerevisiae with 46 samples.

Results

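The outermost 20 kb of the 32 ends of the 16 nuclear chromosomes of budding yeast were described from whole-genome read depth. Every nuclear bin of 1 kb that began less than 20 kb from the nearer end of its chromosome was taken, which gave 656 of 12079 nuclear bins (12165 bins with the mitochondrial genome). A left end has 20 such bins and a right end 21, of which the outermost is shorter than 1 kb and so holds fewer reads. Positions follow the R64 assembly of the reference strain S288C. No measured value was used to choose the bins.

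The study is about gains of particular chromosomes in cells that lack Bub3, a protein of the spindle assembly checkpoint, which holds back chromosome separation until each chromosome is held by spindle fibres. DNA of overnight cultures of W303, a laboratory strain related to S288C, was sequenced in 46 samples. Each of 20 lines, named by a letter and a digit, had 1 non-evolved and 1 evolved sample, and 3 of them (C2, E3 and G4) had a further sample named evolved_Bub3. The wildtype LY1 had 1 sample in each of the 3 states and therefore no replicates. The labels give W303 for all samples but not the genotype or ploidy of the lines, the relation between lines, or what sets evolved_Bub3 apart from evolved. The p-values below therefore hold for these lines only. Those between states set the mean change within a line against the spread of such changes over the lines. For evolved_Bub3 minus evolved, which only 3 lines have, that spread was pooled over all 20 lines. It is therefore not the spread of this change over its 3 lines. The p-values between lines set the differences between lines against the spread between the states of a line.

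The ends of yeast chromosomes carry short telomeric repeats, then X elements and, at some ends, Y' elements with copies of the YRF1 helicase genes. Further in lie families of nearly identical genes for sugar uptake, cell wall proteins, metal uptake and vitamin synthesis, whose number and place differ between strains, and genes close to a telomere can be silenced. Reads of nearly identical copies cannot be assigned with certainty, and the reference is not the strain sequenced, so a low or empty bin here is a statement about reads placed on S288C coordinates.

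The samples held 1961866 to 3770032 reads, recovered as whole numbers from the deposited ratios, and the median bin held 130 to 292. The 656 end bins held 3.65% to 4.45% of the nuclear reads of a sample. The value given for a bin is its log2 copy ratio minus the median of its chromosome in the same sample, so a gained chromosome does not by itself raise it. The level of an end is the median of these values over its bins that had reads in at least 50% of the samples, with an empty bin counted as 0.5 reads. A pair of libraries stood apart. In B2 non-evolved the median of the 32 end levels was 0.21 and 29 of 32 ends lay above their median over 46 samples, and in A4 evolved these were 0.15 and 30 of 32. The other samples had medians from -0.07 to 0.08. B2 non-evolved also had the largest spread between bins away from the ends (SD 0.23, log2) and 2174504 reads.

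Reads thinned out toward the ends in every sample. Of the 656 end bins, 104 (15.9%) had no reads in any of the 46 samples, beside 84 of the other 11423 nuclear bins (0.735%) and 1.56% of all nuclear bins. A further 66 end bins were empty in some samples and 486 (74.1%) were covered in all 46, beside 98.4% of the other bins. By their median over 46 samples, 338 end bins (51.5%) lay within 0.3 of their chromosome, beside 96.2% of the other bins. A difference of 0.3 on this scale is the threshold for low and high used throughout. Each sample had 123 to 140 empty end bins, with a median of 132 (125 to 140) over non-evolved samples and 133 (123 to 138) over evolved ones, so the ranges overlapped.

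The thinning was graded. Within 5 kb of the end 30.1% of the bins were empty in all samples and 25% lay within 0.3 of their chromosome. From 5 to 10 kb these shares were 13.8% and 48.8%, from 10 to 15 kb 13.1% and 59.4%, and from 15 to 20 kb 5% and 75.6%. Past the 20 kb limit the shares approached those of the chromosome arms, with 89.4% of bins near their chromosome from 20 to 25 kb and 99.4% from 40 to 50 kb. Counted inward, the first run of 3 neighbouring bins near the chromosome level began at a median of 6 kb over the 25 ends that had one. At 3 ends, III right, VI right and XI right, it began less than 1 kb from the end. The short outermost bin was itself low at III right (-5.14) and VI right (-3.11), and 7 ends had no such run within 20 kb.

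**Figure D1:**
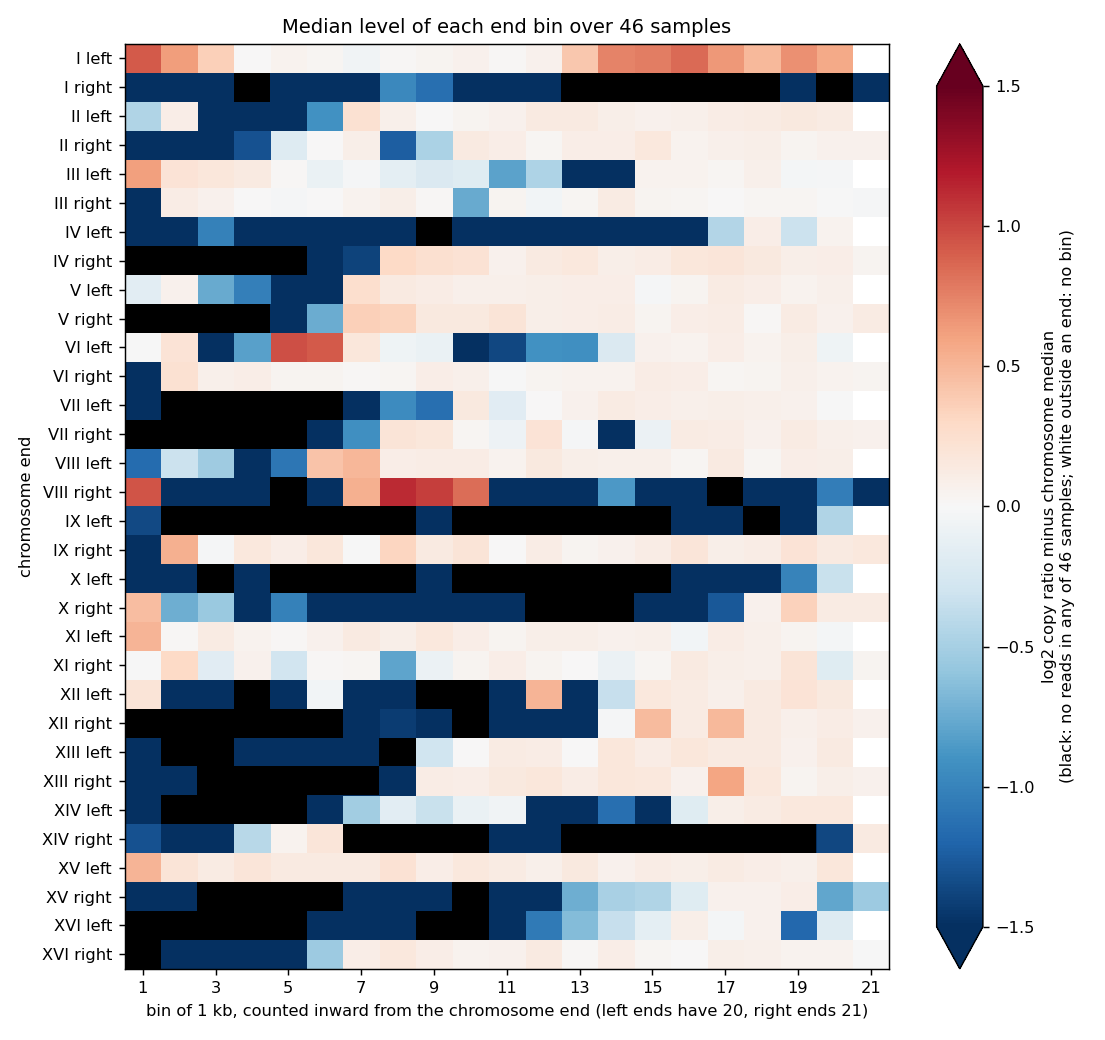
Median log2 copy ratio minus the chromosome median of each 1 kb bin (columns, counted inward from the end) at the 32 ends (rows), over 46 samples. Black squares are bins without reads in any sample. The black squares cluster at 19 ends, with 14 of them at IX left, while 11 ends have reads in every bin and sample.

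The 32 ends were unlike each other and each kept its own pattern. An end was low where its level was at or below -0.3 in all 46 samples, which held for 9 ends, 4 left and 5 right. Among 612 windows of 20 kb tiled from both ends of each chromosome, 9 (1.47%) were low in this sense. These were 8 of the 9 ends, since IX left had too few covered bins to be among the 612, and 1 window inside chromosome IV, and no window was high in all 46. Another 21 ends had a median level within 0.3 of their chromosome. The remaining pair was I left, the highest at 0.37 (0.16 to 0.58 over 46 samples), and XIV left, at -0.30 (-0.48 to -0.06). The 46 samples include the wildtype in its 3 states, which was therefore low at these 9 ends by definition.

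X left was the emptiest by level. It was at -6.24 (range -7.99 to -5.06), with 11 of 20 bins empty in all samples and a median of 2 reads per bin entering the level. Reads returned in its 2 innermost bins, the innermost of which was at -0.33. IX left had more empty bins, 14 of 20, and a level of -3.71 (-5.11 to -2.81) from the 4 bins with enough samples covered, too few for a test. Its outermost bin was at -1.35 and its innermost at -0.45, and between them no bin exceeded -6.27. PAU14 and PAU1, VTH1 and VTH2, and IMA3 and IMA4 are counterparts at IX left and X left. They encode cell wall proteins of the seripauperin family, sorting receptors related to Vps10 and isomaltases, and 5 of these 6 genes lay almost wholly in empty or nearly empty bins. The inner part of IMA4 held more reads, a median of 111 over its 3 bins.

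I right had a level of -4.82 (-6.13 to -4.34), with 8 of 21 bins empty in all samples. The best covered bins were 222001 to 224000, at -1.13 and -0.96. PHO11, a secreted acid phosphatase gene at 225460 to 226863, had 2.42% of the chromosome level (0.856% to 4.74%), a median of 12 reads over 2 bins. IV left was at -3.99 (-4.98 to -3.49). It had few reads over MPH2, a maltose permease gene, SOR2, a sorbitol dehydrogenase gene, and HXT15, a hexose transporter gene, and returned to 0.05 by its innermost bin. All samples shared this step, which fell between 15 and 18 kb from the end.

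VIII right was at -1.83 (-2.14 to -1.53) but mixed low and high bins. X right was at -1.31 (-1.75 to -0.99), and its 3 empty bins lay at HXT16, a hexose transporter gene. XIV right was at -0.80 (-1.19 to -0.50), with 11 bins empty. Its covered island was COS10, of a family of membrane proteins that act in sorting to the vacuole, at 1.04 times the chromosome level. XV right (-0.69, range -1.06 to -0.40) and XVI left (-0.64, range -0.97 to -0.40) carry the same order of gene pairs. HSP33 and HSP32, FEX1 and FEX2, which export fluoride, and FDH1 and FDH2, formate dehydrogenases, were partly covered at both ends. The bin in FDH1 at XV 1072001 to 1073000 was at -0.77 and the bin at the outer edge of FDH2 at XVI 18001 to 19000 at -1.17. These gene names outside the fixed families were chosen after the values were seen.

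**Figure D2:**
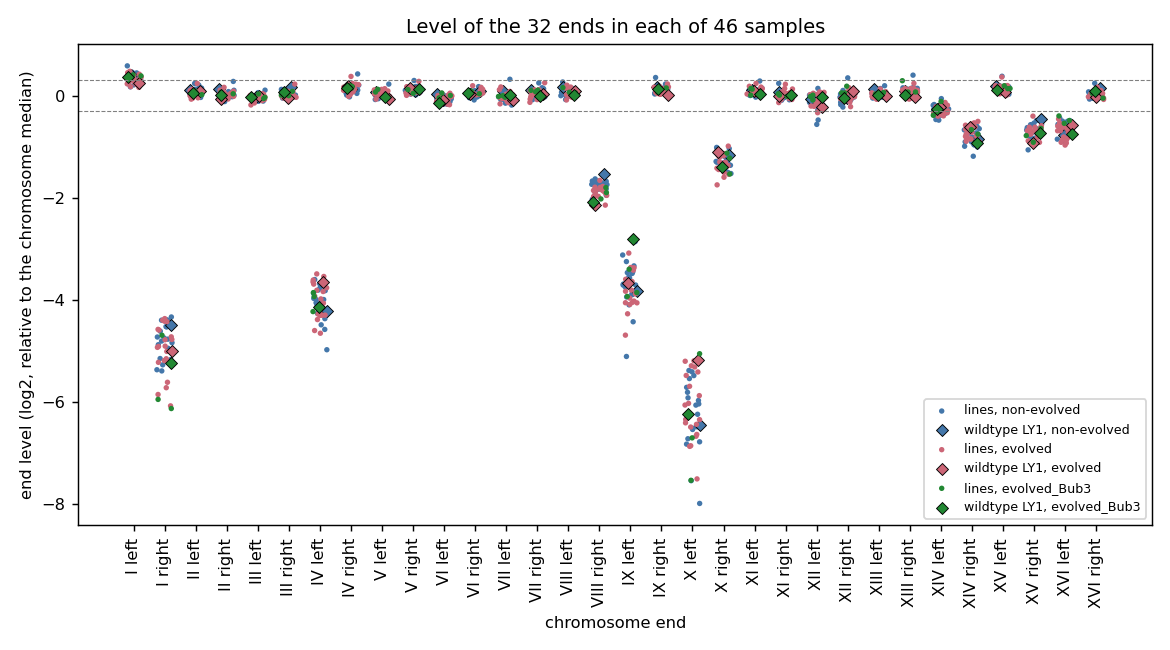
Level of each chromosome end (log2, relative to the chromosome median) in each of 46 samples, with 1 point per sample, circles for the 20 lines and diamonds for the wildtype LY1, coloured by state. Dashed lines stand at 0.3 and -0.3. The 9 low ends keep all points below the lower line, from X left at -7.99 to -5.06 up to XVI left at -0.97 to -0.40, and the states overlap at each end.

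Of 246 protein-coding genes that overlap the ends, 132 had a median level within 0.3 of their chromosome, 44 were low in all samples, 37 had under 10% of the chromosome level in all samples, 8 had no reads in any sample and 2 were high in all. The 8 without reads were COS12, HXT16, SNO4, ERR3, AIF1, YER190C-B, YGL262W and YNR071C, named for their values. ERR3 is related to enolases and AIF1 to the apoptosis-inducing factor of mitochondria.

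The 8 YRF1 genes, Y' helicases, were all under 10% of their chromosome in all 46 samples. The best covered was YRF1-2 at V right, at 6.59% (4.28% to 8.46%), and YRF1-1 at IV right had reads in 2 samples only. Among 19 seripauperin genes in the ends, 9 were near their chromosome, 6 were under 10% (PAU1, PAU11, PAU14, PAU19, PAU21 and PAU22), and PAU6 was low. PAU8 at I left was at 1.40 times its chromosome (1.13 to 1.75). Of 11 COS genes 5 were near their chromosome, 4 were low and COS12 had no reads, beside 132 near, 44 low and 8 without reads among all 246 genes.

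Sugar genes differed within ends as well as between them. Among 10 maltose and sucrose genes, the regulators and permeases MAL33, MAL31, MAL13 and MAL11 at II right and VII right were near their chromosome, at 1.06 to 1.09. The maltases MAL32 and MAL12 in the same clusters were at 0.575 (0.493 to 0.775) and 0.579 (0.475 to 0.757). MPH3, a maltose permease gene, was at 0.123, IMA4 at 0.153, and MPH2 and IMA3 were under 10% in all samples. Of 4 hexose transporter genes HXT9 was near its chromosome, HXT15 and HXT17 were under 10% and HXT16 had no reads.

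Vitamin genes stood between. Of 8 thiamine and vitamin B6 genes, SNO2, SNZ2, SNO3, SNZ3 and THI11 were low in all samples. SNO2, which with SNZ2 makes vitamin B6, was at 0.337 (0.222 to 0.473) and SNZ2 at 0.430 (0.301 to 0.529). THI5, which makes the pyrimidine part of thiamine, was at 0.838 (0.673 to 1.03). The 5 aryl alcohol dehydrogenase genes matched, the arsenic resistance genes ARR1, ARR2 and ARR3, the siderophore transporter genes ARN1, ARN2 and ENB1, the ferric reductase gene FRE2, the flocculin gene FLO10 and the phosphate transporter gene PHO89 were all near their chromosome. HMLALPHA2 and HMLALPHA1, the silent copies of the mating type genes, were low, at 0.177 (0.106 to 0.263) and 0.268 (0.174 to 0.378). No biotin gene lay within 20 kb of an end.

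Only 10 end bins (1.52%) were at or above 0.3 in all 46 samples, beside 7 of the other 11423 (0.0613%). They lay at 4 ends, with 5 at I left from 13001 to 17000 and from 18001 to 19000 (TDA8 in the outermost of them). At VIII right there were 3 from 553001 to 556000, with the outer part of PHO12 and with IMD2, an enzyme of guanine nucleotide synthesis. Over its whole length PHO12 was at 0.685 times its chromosome (0.557 to 1.05) and IMD2 at 2.16 (1.64 to 3.20). There was 1 at VI left and 1 at XIII right inside YMR317W, at a median of 0.59 and at least 0.44.

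The 5 bins at I left kept much the same level relative to chromosome I whether or not that chromosome was gained. Relative to chromosome I their mean was 0.74 (median of 46 samples, range 0.57 to 0.92). In C2 chromosome I was at 0.04 in the non-evolved sample, 0.99 in the evolved sample and 0.00 in evolved_Bub3, relative to the sample's baseline over 16 chromosomes. The 5 bins relative to chromosome I stood at 0.76, 0.71 and 0.78 in the same samples. E3 and G4, with chromosome I gained in the evolved and evolved_Bub3 samples, had 0.73 to 0.82 across all states. The wildtype, without a gain, had 0.80, 0.65 and 0.79.

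The 3 high bins at VIII right did not keep a constant level relative to chromosome VIII. Over 46 samples they had a median of 1.01 and a range of 0.66 to 1.61. Set against the baseline of the sample as linear copy ratios, they held 2.10 in C2 non-evolved, 2.85 in C2 evolved and 1.97 in C2 evolved_Bub3. Chromosome VIII was at 0.03, 0.04 and 0.00 (log2) in these samples and chromosome I at 0.04, 0.99 and 0.00. In E3 the bins held 1.92, 3.01 and 4.09. Chromosome VIII in E3 was at 0.03, 0.07 and 0.98 and chromosome I at 0.06, 0.95 and 1.01. In G4 the bins held 2.15, 2.68 and 4.20, with chromosome VIII at 0.00, 0.04 and 1.03 and chromosome I at 0.02, 0.94 and 1.06. The wildtype bins held 2.17, 1.75 and 2.01, with neither chromosome gained. In all 3 lines the value was thus higher in the evolved sample, where chromosome I and not chromosome VIII was raised, and in E3 and G4 higher again where both were. Relative to chromosome VIII, limma called none of the 3 bins, with adjusted p of at least 0.697 for evolved_Bub3 minus evolved and 0.992 for evolved minus non-evolved, over all lines whatever their gains.

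Other samples, chosen after their values were seen, gave values of the same kind. In B3 evolved, with chromosome I at 1.29 and chromosome VIII at 0.15, the bins held 3.37 times the baseline and stood at 1.61 relative to chromosome VIII, the highest of 46 samples. In E4 non-evolved, with chromosome VIII at 0.81 and chromosome I at 0.22, they stood at 0.66, the lowest. In D4 non-evolved, with chromosome I at 0.90 and chromosome VIII at 0.71, they stood at 1.07. PHO12, of which only the outer part lies in the 3 bins, has a near relative, PHO11, at I right, where few reads were placed. The part of read placement between such copies was not tested. Nor was it examined whether IMD2, which also lies in the 3 bins, has a relative on chromosome I.

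**Figure D3:**
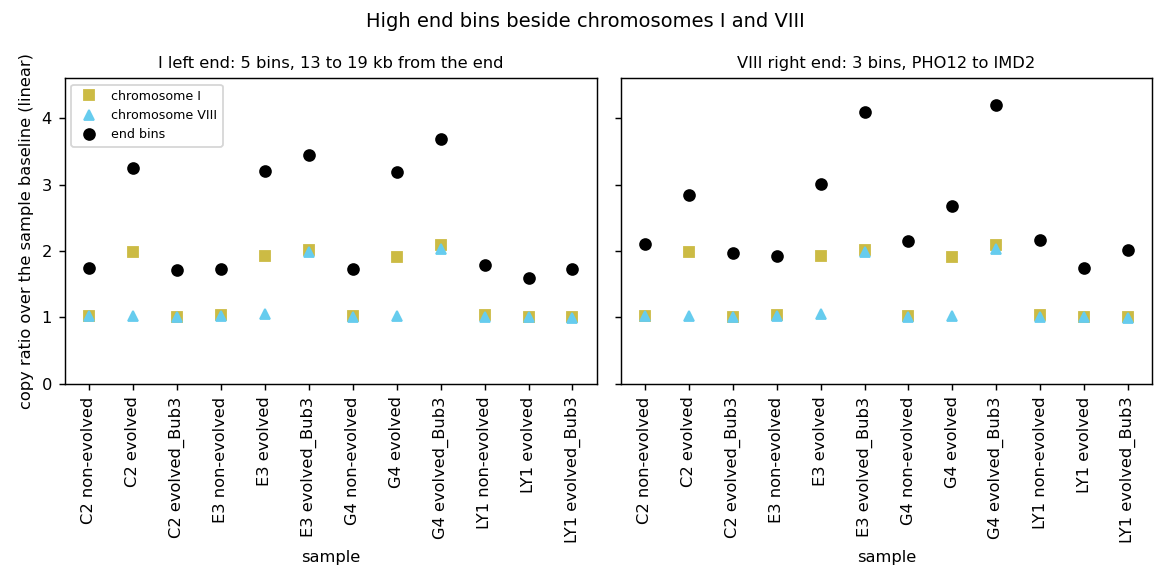
Linear copy ratio over the sample baseline of the 5 high bins of I left (left panel, black circles) and of the 3 high bins of VIII right (right panel), with chromosome I (squares) and chromosome VIII (triangles), in the 4 strains sampled in 3 states. At VIII right the bins stand at 3.01 in E3 evolved, where only chromosome I is near 2, and at 4.09 in E3 evolved_Bub3, where both are.

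Between the states of a line the ends were compared with limma, with the line as block, over 612 windows and 43 samples. For evolved minus non-evolved 0 of the 31 testable ends passed an adjusted p of 0.05, as did 0 of all windows (0.0%). By unadjusted p 3 ends were under 0.05, beside 20 of 612 windows (3.27%). Of these, VIII right differed by -0.09 (95% interval -0.16 to -0.02), from a mean of -1.78 ± 0.12 (SD, n = 20) to -1.88 ± 0.10 (SD, n = 20). XVI left differed by -0.08 (-0.16 to -0.01) and XIV right by 0.09 (0.01 to 0.17). The adjusted p of all 3 was 0.997. Among the single bins 0 of 529 tested at the ends passed, as did 0 of 11810 (0.0%), with 26 at the ends and 543 overall (4.6%) under an unadjusted 0.05.

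For evolved_Bub3 minus evolved, which rests on 3 lines, 0 of 31 ends passed by limma, beside 1 of 612 windows (0.163%), and 4 ends were under an unadjusted 0.05 beside 7.68% of windows. XVI left differed by 0.25 (0.07 to 0.43). I left differed by 0.13 (0.03 to 0.24), XIII right by 0.11 (0.00 to 0.22), and I right, with a median of 6 reads per bin, by -0.78 (-1.43 to -0.12). The adjusted p of these 4 was 0.611. Among the single bins 0 of 529 passed, beside 6 of 11810 (0.0508%), with 41 end bins under an unadjusted 0.05 beside 6.56% of all bins. Library numbers run by state, and the effects of both cannot be told apart.

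**Figure D4:**
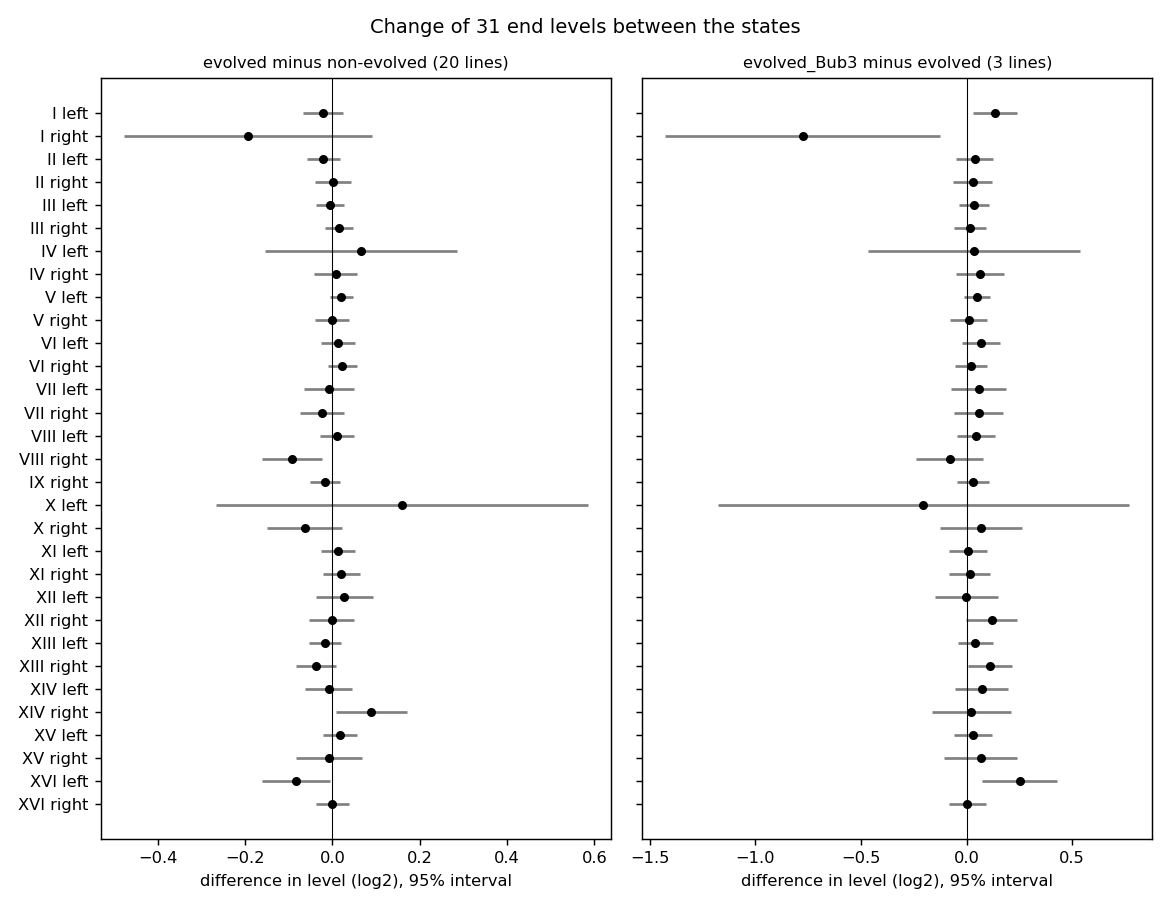
Difference in end level (log2) with its 95% interval from limma for 31 ends, evolved minus non-evolved over 20 lines (left) and evolved_Bub3 minus evolved in 3 lines (right). The intervals are widest at I right, IV left and X left, where few reads enter the level, and XVI left stands at 0.25 on the right.

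Lines did differ from each other in a few bins. A moderated F-test in limma over 20 lines, with state as covariate, called 0 of 31 ends and 0 of 612 windows (0.0%), with 6 ends under an unadjusted 0.05 beside 5.88% of windows. In single bins it called 6 of 529 at the ends, beside 18 of 11810 overall (0.152%), and 4.44% of all bins were under an unadjusted 0.05. The 6 were the outermost bin of IX right, a pair of neighbouring bins at XII right and 3 neighbouring bins at VI left. Restricting the test to bins with a median of at least 20 reads called 16 of 470, beside 46 of 11666 overall. Leaving out line B2 gave 6 calls and leaving out line A4 gave 7. The outermost IX bin, the XII bin nearer the centromere and the inner pair of VI bins were called in each of the 4 other settings whose calls were listed by bin, and the remaining 2 were not.

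The outermost bin of IX right, chromosome IX 439001 to 439888, 888 bp with no annotated gene, had an adjusted p of 2.41e-07 in limma's F-test. Its levels formed separate ranges. In 17 samples it stood at -0.09 to 0.56, with 159 to 345 reads, and in 29 samples at -3.33 to -2.12, with 14 to 48 reads, and no sample fell between. Lines A1, A3, B2, C2, C4, D2 and E4 were in the upper range in both states, and A2, A4, B3, C1, C3, D3, D4, E3, F3, F4, G1 and G4 in the lower range in both. The evolved_Bub3 samples of C2, E3 and G4 stood at 0.07, -2.20 and -3.32, each in the range of its line. D1 was the exception among the 20 lines, at 0.56 when non-evolved and -2.93 when evolved. The wildtype LY1 also changed, with 0.30 when non-evolved, -2.57 when evolved and -3.29 as evolved_Bub3. The labels do not say whether the samples of a line or of LY1 in different states descend from 1 clone. Chromosome IX itself was between 0.00 and 0.04 in all 5 of these samples of D1 and LY1.

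At VI left the 3 called bins covered 3001 to 6000, in a stretch with the open reading frames YFL065C and YFL064C at its outer part. The bin at 5001 to 6000, without an annotated gene, stood at 0.44 to 1.20 over non-evolved and 0.40 to 1.21 over evolved samples (medians 0.92 and 0.92, adjusted p 1.53e-05 in limma's F-test). The states of a line differed by a median of 0.08 and at most 0.29. The bin at 4001 to 5000 ranged from 0.45 to 1.37 in the non-evolved samples (adjusted p 0.000183) and the bin at 3001 to 4000 from -1.59 to -0.48 (adjusted p 0.0277), both by limma. The last call was lost where the 3 evolved_Bub3 samples were included.

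The VI left bin at 5001 to 6000 and the outermost IX right bin sorted the 46 samples alike. The 17 samples in the upper range of the IX bin were the 17 lowest of the VI bin, at 0.40 to 0.74, and the other 29 stood at 0.88 to 1.21. This held across changes of state. In D1 the VI bin was at 0.74 when non-evolved and 0.89 when evolved, while the IX bin fell from the upper to the lower range. In LY1 the VI bin stood at 0.59, 0.89 and 1.13 in the non-evolved, evolved and evolved_Bub3 samples. In C2, which stayed in the upper range of the IX bin, the VI bin stood at 0.47, 0.67 and 0.59. For the neighbouring bin at 4001 to 5000, 13 of its 17 lowest samples were in the upper range of the IX bin. Whether reads are shared between these ends was not tested, and the coincidence was noticed after the values were seen.

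**Figure D5:**
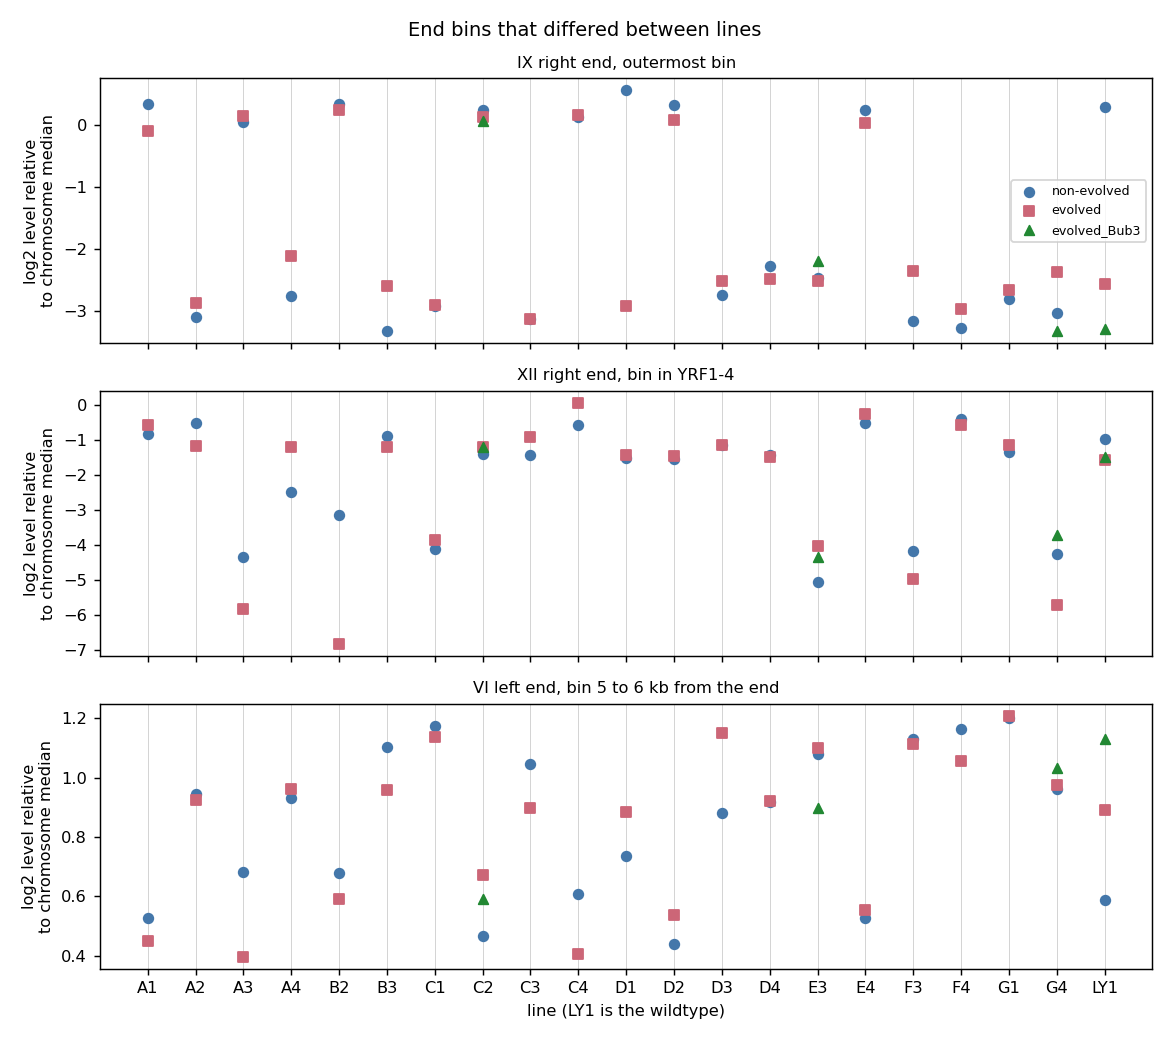
Level (log2, relative to the chromosome median) of 3 end bins in each line and state. They are the outermost bin of IX right, the bin of XII right at 1071001 to 1072000 and the bin of VI left at 5 to 6 kb from the end. The XII bin overlaps YRF1-4 only up to 1071235. At IX right 17 samples stand at -0.09 or above and 29 at -2.12 or below, the same 17 are the lowest at VI left, and at XII right lines A3, B2, C1, E3, F3 and G4 stay low.

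At XII right the bin at 1071001 to 1072000 varied over the widest range of the 6, from -6.82 to 0.05, with 2 to 201 reads (adjusted p 2.41e-07 in limma's F-test). YRF1-4 ends at 1071235, so most of this bin lies outside the gene. Lines A3, B2, C1, E3, F3 and G4 had at most 19 reads there in both states, at -3.14 or below. The other 14 lines had at least 60 reads, at -2.49 or above, in both states, and LY1 stood at -0.97, -1.56 and -1.47. The neighbouring bin at 1072001 to 1073000, which overlaps YRF1-5 from 1072508 on, held 0 to 12 reads. It had an adjusted p of 0.00189 in limma's F-test, a call lost where an empty bin counted as 1 read. The bin at 1071001 to 1072000 sorted the lines otherwise than the IX bin did. Among the non-evolved samples, 8 lines were low at IX and high at XII, 6 were high at both, 4 low at both and 2 high at IX and low at XII.

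Single samples departed from the median of an end by 0.3 or more in 108 of 1472 pairs of sample and end, beside 94 of 28152 for all 612 windows (0.334%). The 31 ends among these windows held 87 of the 94 and the other 581 windows 7. Of the 108, 99 fell at the 6 ends with a median level below -1. X left, I right and IV left, with medians of 2, 6 and 11.3 reads per level bin, gave 30, 25 and 19 of them. IX left, whose level rests on 4 bins, gave 21. Its median of 43 reads falls between covered bins and nearly empty ones, so its level also depends on bins with few reads. VIII right and X right gave 2 each. At the other 26 ends there were 9 among 1196 pairs. B2 non-evolved accounted for 4, at IV right, VII left, XII right and XIII right, by 0.30 to 0.35. Without B2 non-evolved the total was 99 and without A4 evolved 107.

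XII left gave 2 of the 9, and both samples had a gained chromosome XII. In A1 non-evolved it stood at -0.56 and in A4 non-evolved at -0.48, beside a median of -0.05 over 46 samples. Chromosome XII was at 0.98 in A1 and 0.99 in A4 over the sample baseline, and the end at 0.42 and 0.51. The median over the 16 bins that enter its level was thus raised by less than the chromosome in both. This did not hold along the whole end. Relative to chromosome XII, the inner genes AYT1, MHT1 and MMP1 had minima over 46 samples of -0.09, -0.06 and -0.11. Further out, YLL066W-B ranged from -1.59 to 0.47 over the 46 samples, and its values in A1 and A4 are not given here. These genes were chosen after the values were seen. The remaining 3 of the 9 were XIV right and XV right in G4 non-evolved, by -0.38 and -0.37, and XVI left in D3 evolved, by -0.32.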

How the data were processed

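Genomic DNA of 46 cultures was sequenced. Per the file headers, the deposited values are log2 copy ratios of 1 kb bins as written by GATK, on contigs of R64. Trimmomatic 0.39, BWA 0.7.17, Picard 2.27.1 and GATK are named per the submitters' processing notes. Duplicate removal and GC correction are not given in the sources used here. Each value was a whole number of reads over the sample's median bin (100% within 0.01 reads), so reads were recovered. Bins without reads stood at a floor of -29.9 in the deposited log2 values. The labels name no molecular identifiers, so errors from read numbers cover counting only.

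Chromosomes were tiled in windows of 20 kb from both ends. Windows needed at least 5 bins with reads in at least 50% of samples, which left out IX left. limma 3.58.1 in R 4.3.3 tested 612 windows and 11810 bins, with Benjamini-Hochberg adjustment. The states were fitted over 43 samples with the line as block, and lines over 40 samples. The wildtype was not tested. Lines pair the samples by the code in the titles. Over 529 end bins the deviations of a line's samples had correlations of -0.17 to 0.33 (median 0.09, 10 of 20 above 0.1). The median with samples of other lines was -0.002. In 3 of 20 lines the line's own evolved sample had the highest correlation, so the end bins pair the samples only weakly. On simulated data of 11810 bins, evolved minus non-evolved recovered 99% of changes of 0.5 and 100% of changes of 1, with 5 unchanged bins called. The line test recovered 100% of bins with a line SD of 1, with 3 unchanged bins called. Changes were placed at random over all 11810 bins, and the noisiest bins were given less spread than observed. These shares therefore do not measure recovery at the 529 end bins.

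Gene names and positions came from the RefSeq gene table of R64. The ends, gene families and lists were chosen with earlier results of these data known. Named by rule were all ends, bins past an adjusted p of 0.05, ends with a sample 0.3 or more from their median, and family members in the ends. Of the listed families COS11, 1 hexose transporter and 2 aryl alcohol dehydrogenases did not match. Ranges split at -1 (IX right) and -3 (XII right) were set after the values were seen.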

Additional observations from a re-analysis of the deposited data

Results flagged for a closer look

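At 4 of 32 ends the wildtype, with 1 sample per state, moved the opposite way from all 3 lines between evolved and evolved_Bub3. Signs drawn at random for 3 lines and 1 wildtype would be expected to give about as many such ends. The difference between wildtype and lines was not tested. At XVI left the wildtype changed by -0.17 and the lines by 0.10 to 0.41. XII right changed by -0.12 in the wildtype and by 0.13 to 0.17 in the lines. The changes at VI left were -0.062 and 0.01 to 0.09, and those at IV right were -0.026 and 0.05 to 0.09.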

How the results depend on the processing

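A total of 56 alternatives were computed for 10 results, 44 of them planned and 12 added after the data were seen. In 41 the count stayed within 1.5 times that reported. Of 28 alternatives for the comparisons between states, 25 gave 0 called ends or end bins. The fit without the line as block was among them and gave 0 for windows and for bins in both comparisons.

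Lines differed at 1 end (IX left, with an adjusted p of 0.0129 in limma) where a window's level was the log2 of its mean copy ratio. They differed at 1 end (XVI left, 0.0447 in limma) over bins with reads in every sample. Over all windows these settings called 2 of 614 and 1 of 611. For evolved_Bub3 minus evolved, centring on the sample baseline called 1 end and 29 of 612 windows overall. The end was VIII left, by 0.66 (adjusted p 0.0347 in limma). This setting keeps gains of whole chromosomes in the values. The 6 evolved and evolved_Bub3 samples alone called 5 end bins, beside 12 of 11810 bins overall. The 5 were at I 225001, I 226001, VIII 559001, XII 1072001 and XVI 7001, with medians of at most 6 reads each. Leaving out 1 of the 3 lines gave 0 to 1 called end bins, the 1 at VIII 562001 without C2, beside 5 to 8 of 11810 overall. Restricting the line test to bins with a median of at least 20 reads called 16 end bins of 470, beside 46 of 11666 overall. The line test called 9 of 486 over bins with reads in every sample, beside 29 of 11726 overall. It called 5 of 529 with an empty bin as 1 read or with 43 samples, beside 18 and 17 of 11810. The cause was not tested.

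With the mean copy ratio 15 ends were low and 1 high in all samples, and the pairs that departed by 0.3 numbered 11. Over the outer 30 kb only I right and VIII right (2) stayed low, and over the outer 10 kb 13 were low, with 232 departing pairs. A threshold of 0.5 left 7 low ends. Thresholds of 0.2 and 0.5 gave 196 and 44 pairs, and only ends with a median of -1 or above gave 9. Under 10% of the chromosome in place of empty gave 178 bins. Depth limits X left, I right and IV left, whose level bins held medians of 2, 6 and 11.3 reads. IX left rests on 4 bins, some of them nearly empty.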
